A study of Mus musculus with 18 samples.

Results

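The genes described here are 10 genes of neutrophils, measured in the ileum of 18 mice after an allogeneic bone marrow transplant. They are the primary granule enzymes Mpo and Elane, the specific granule proteins Ltf, Camp and Ngp, the calprotectin subunits S100a8 and S100a9, the secreted protein Retnlg, and the receptors Csf3r and Cxcr2. A gene was taken by its exact symbol in the array annotation, and each of the 10 had exactly 1 probe set. They are 10 of the 22180 genes that could be tested.

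Recipients were B10.BR mice, 8 to 12 weeks old, given 11 Gy of total body irradiation the day before transplant, and donors were C57BL/6 mice. Every recipient received donor marrow depleted of T cells, and in the T cell mice purified T cells of the donor were added to the graft. Such T cells attack the host, a condition called graft-versus-host disease (GvHD). Both arms were gavaged daily, from the day before transplant, with 150 mg/kg of indole-3-carboxaldehyde (ICA), an indole made from tryptophan by gut bacteria, or with a vehicle of 20% DMSO, 40% PEG400 and 2% citric acid. Ileum was taken on day 21, which gave 5 T cell mice on ICA, 4 T cell mice on vehicle, 5 marrow-only mice on ICA and 4 marrow-only mice on vehicle, with 1 array per mouse. All 4 groups were irradiated and transplanted, so no group shows the level of these genes in an untreated ileum, and the cells of host and donor origin were not separated.

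Neutrophils are short-lived white cells made in the marrow under the cytokine G-CSF, and they reach inflamed tissue along gradients of chemokines that bind CXCR2. They make their granule proteins in sequence: primary granule enzymes at the promyelocyte stage, then specific granule proteins, while Cxcr2 and the calprotectin subunits belong to later stages. A mature neutrophil in tissue therefore carries granule proteins whose messages have largely been lost. In the gut after an allogeneic transplant, neutrophils that enter damaged mucosa are known to add to tissue injury.

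The values are log2 array signals as deposited, so 1 unit is a doubling, and a level is not compared between genes because probe sets differ in brightness. The median of all probe sets lay between 6.47 and 6.51 on the 18 arrays. Markers of the ileum were high on every array: Fabp6, the ileal bile acid binding protein, lay between 11.81 and 12.71, and Slc10a2, the ileal bile acid transporter, between 10.27 and 11.08. The means of the 10 genes over the 18 mice ran between 5.24 for S100a8 and 7.34 for Csf3r, and all but Csf3r, Ltf and Retnlg lay below the array medians. The RNA is from whole tissue, in which fewer cells of a type and less RNA per cell cannot be told apart.

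Retnlg rose in T cell mice on vehicle over marrow-only mice on vehicle, and it was the only one of the 10 genes that did so at an adjusted p under 0.05. Ngp, S100a8 and S100a9 had the next largest differences, without passing. The granule enzymes Mpo and Elane, lactoferrin (Ltf) and the receptors Csf3r and Cxcr2 differed by at most 0.13. With ICA in T cell mice no gene of the 10 passed. All 10 differences there were below 0, as were those of 53.4% of all genes.

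To show the DNA in front of the genes that differed most, the 250 bases before the start of 4 genes are given 5′ to 3′ on the gene's strand, from RefSeq on build GRCm38.p6. They are Retnlg at chr16:48872358-48872607 on the plus strand, Ngp at chr9:110419558-110419807 on the plus strand, S100a8 at chr3:90668821-90669070 on the plus strand and S100a9 at chr3:90695722-90695971 on the minus strand. Capitals mark matches to TTNNGCAA, a motif of the C/EBP factors that drive granule genes, in Retnlg, Ngp and S100a9, and matches to GAGGAA, a motif of the myeloid factor PU.1, in S100a8, on either strand.
Retnlg: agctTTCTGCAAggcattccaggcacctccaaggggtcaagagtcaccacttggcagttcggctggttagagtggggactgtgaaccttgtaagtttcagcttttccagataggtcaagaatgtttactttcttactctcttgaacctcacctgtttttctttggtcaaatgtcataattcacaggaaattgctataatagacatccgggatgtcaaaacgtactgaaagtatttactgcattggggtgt
Ngp: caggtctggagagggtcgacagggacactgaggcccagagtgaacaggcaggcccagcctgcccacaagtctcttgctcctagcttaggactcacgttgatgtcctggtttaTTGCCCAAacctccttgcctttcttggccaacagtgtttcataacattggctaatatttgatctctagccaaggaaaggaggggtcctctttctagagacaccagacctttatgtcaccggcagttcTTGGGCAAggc
S100a8: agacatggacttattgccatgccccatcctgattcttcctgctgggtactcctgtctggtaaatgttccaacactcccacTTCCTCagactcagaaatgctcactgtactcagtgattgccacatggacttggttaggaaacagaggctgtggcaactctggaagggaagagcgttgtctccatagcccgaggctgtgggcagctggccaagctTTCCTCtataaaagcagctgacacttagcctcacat
S100a9: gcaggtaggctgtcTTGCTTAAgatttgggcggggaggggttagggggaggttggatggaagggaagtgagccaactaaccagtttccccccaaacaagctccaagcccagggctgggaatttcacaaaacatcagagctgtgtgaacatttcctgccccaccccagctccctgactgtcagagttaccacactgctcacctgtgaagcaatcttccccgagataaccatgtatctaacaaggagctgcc

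The TTNNGCAA motif (TTGCNNAA on the other strand) was in the windows of 4 of the 10 genes and in 9.56% of 32851 promoter windows of this length. In Ngp it occurred beginning 138 and 11 bases before the start, in Ltf 75, in S100a9 236 and in Retnlg 246 bases before it. The GAGGAA motif (TTCCTC on the other strand) was in the windows of 6 of the 10 genes, namely Mpo, Elane, Ltf, S100a8, Csf3r and Cxcr2, and in 23.3% of all windows. No match in the 4 printed sequences overlapped another. A match describes letters in the window and does not show a bound site.

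**Figure D1:**
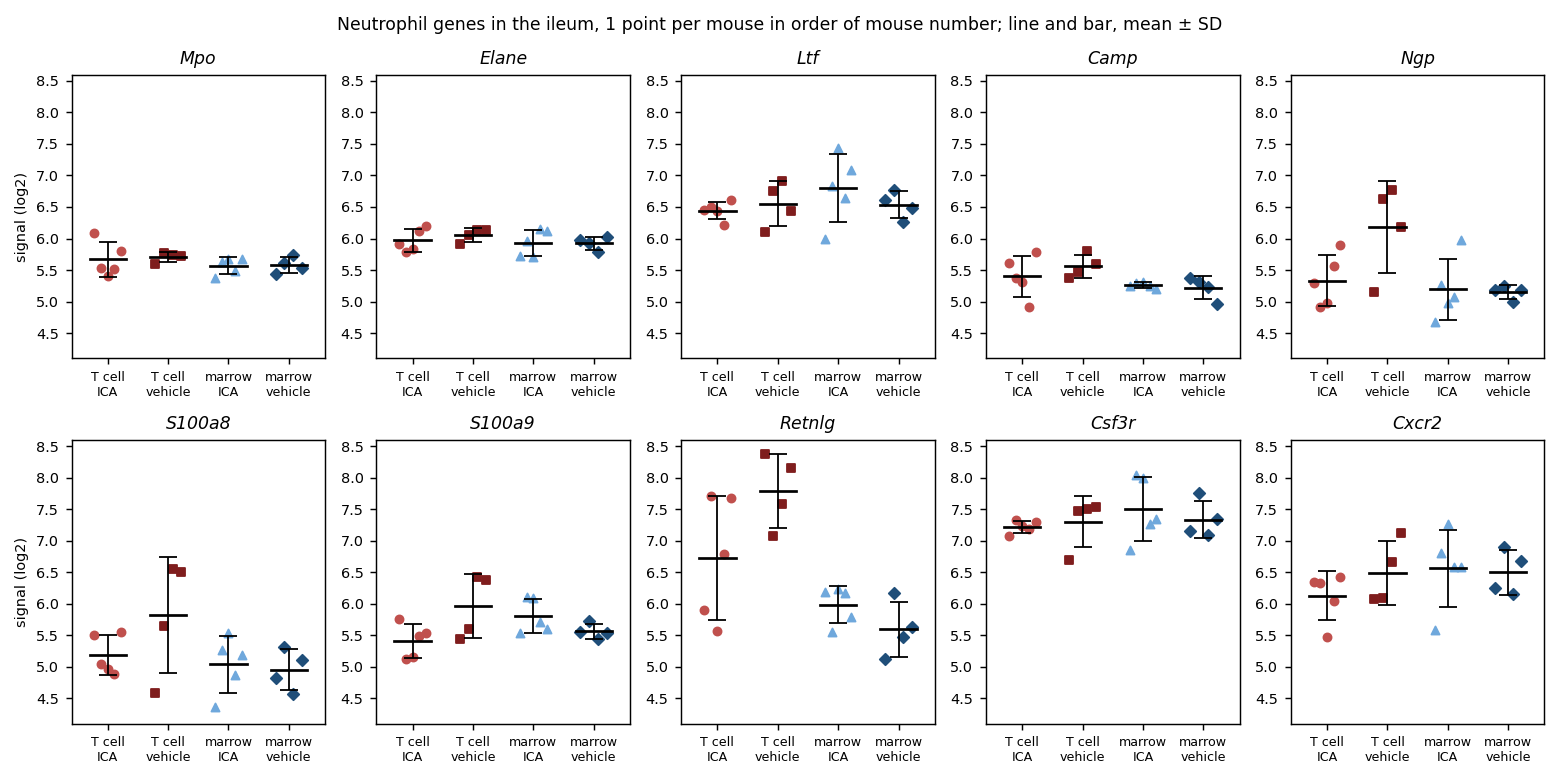
Log2 signal of each of the 10 genes (vertical axes) in every mouse, by group (horizontal axes), with 1 point per mouse and a line and bar for the mean ± SD, in the order T cell ICA, T cell vehicle, marrow-only ICA and marrow-only vehicle. Retnlg lies between 7.07 and 8.37 in the T cell mice on vehicle, above all 4 marrow-only mice on vehicle, whereas Csf3r and Cxcr2 overlap between all groups.

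Retnlg (Entrez 245195, chromosome 16) encodes a small secreted cysteine-rich protein of the resistin-like family, known in mouse marrow and neutrophils. Its log2 signal was 5.91, 7.71, 5.57, 6.79 and 7.68 in T cell mice on ICA and 8.37, 7.07, 7.58 and 8.16 in T cell mice on vehicle. In marrow-only mice it was 6.19, 5.56, 6.23, 6.17 and 5.79 on ICA and 5.12, 6.17, 5.47 and 5.63 on vehicle. Every T cell mouse on vehicle thus lay above every marrow-only mouse in both treatments, while the T cell mice on ICA spread over both ranges. The means were 6.73 ± 0.98 (SD, n = 5) in T cell mice on ICA and 7.80 ± 0.58 (SD, n = 4) in T cell mice on vehicle, against 5.99 ± 0.30 (SD, n = 5) in marrow-only mice on ICA and 5.60 ± 0.44 (SD, n = 4) in marrow-only mice on vehicle. Under vehicle the T cell mice exceeded the marrow-only mice by 2.20 ± 0.39 on the log2 scale (SE), which is 4.59-fold with a 95% interval of 2.63-fold to 8.02-fold (limma, adjusted p = 0.00564), and this was the 4th largest rise of 22180 genes. Leaving out each mouse in turn kept the difference between 2.01 and 2.44, with adjusted p between 0.0071 and 0.0292.

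Retnlg has close relatives, which a probe set could in part also detect. Retnla, the neighbouring paralog on chromosome 16, chosen after its values were seen, was 8.52, 10.08, 9.79, 9.47 and 11.19 in T cell mice on ICA and 10.54, 5.54, 8.47 and 8.20 in T cell mice on vehicle. It was 5.42, 7.96, 8.03, 7.96 and 5.88 in marrow-only mice on ICA and 6.67, 7.23, 7.90 and 7.08 in marrow-only mice on vehicle. In the T cell vehicle group the same mice were at the ends for both genes: mouse 1 was highest, with Retnla at 10.54 and Retnlg at 8.37, and mouse 2 was lowest, with Retnla at 5.54 and Retnlg at 7.07. In the T cell ICA group both ends differed. The lowest was mouse 3 for Retnlg at 5.57 and mouse 1 for Retnla at 8.52. The highest was mouse 2 for Retnlg at 7.71 and mouse 5 for Retnla at 11.19. In T cell mice the mean of Retnla was 9.81 on ICA and 8.19 on vehicle, where that of Retnlg was 6.73 and 7.80. Among mice on ICA Retnla rose by 2.76 ± 0.69 in T cell mice over marrow-only mice (limma, adjusted p = 0.0313), where Retnlg did not pass. Under vehicle the mean of Retnla was 8.19 in T cell mice and 7.22 in marrow-only mice, with overlapping ranges. That of Retnlg was 7.80 and 5.60. Of the other relatives under vehicle, Retnlb averaged 8.85 in T cell mice and 9.16 in marrow-only mice, and Retn 9.42 and 9.45. Detection of one paralog by another's probes was not tested.

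In the specific granules, Ngp (Entrez 18054, chromosome 9), a cystatin-related neutrophil granule protein, had the largest difference of the 3 proteins. Its log2 signal was 5.30, 4.92, 4.98, 5.57 and 5.90 in T cell mice on ICA and 5.15, 6.63, 6.77 and 6.19 in T cell mice on vehicle. The marrow-only mice had 4.68, 5.26, 4.98, 5.07 and 5.98 on ICA and 5.18, 5.25, 5.00 and 5.18 on vehicle. Mice 2, 3 and 4 of the T cell vehicle group stood above all 4 marrow-only mice on vehicle, and mouse 1 lay within their range. The vehicle difference was 1.03 ± 0.29 in log2 (limma, adjusted p = 0.0834).

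Camp (Entrez 12796, chromosome 9), the cathelicidin antimicrobial peptide precursor, was 5.62, 5.37, 5.31, 4.92 and 5.78 in T cell mice on ICA and 5.38, 5.47, 5.80 and 5.59 in T cell mice on vehicle. It was 5.24, 5.30, 5.31, 5.25 and 5.20 in marrow-only mice on ICA and 5.37, 5.31, 5.23 and 4.96 in marrow-only mice on vehicle. The vehicle groups did not overlap, but by a narrow margin, and the difference of 0.34 ± 0.14 did not pass (limma, adjusted p = 0.289).

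Ltf (Entrez 17002, chromosome 9), the iron-binding lactoferrin of specific granules, was 6.45, 6.50, 6.44, 6.22 and 6.61 in T cell mice on ICA and 6.10, 6.75, 6.92 and 6.44 in T cell mice on vehicle. In marrow-only mice it was 6.00, 6.83, 7.43, 6.65 and 7.09 on ICA and 6.61, 6.77, 6.26 and 6.49 on vehicle. Its highest value was in a marrow-only mouse on ICA, and all groups overlapped. The T cell vehicle mice differed from the marrow-only vehicle mice by 0.02 ± 0.22.

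S100a8 and S100a9 (Entrez 20201 and 20202, both on chromosome 3) are the subunits of calprotectin, the calcium- and zinc-binding protein abundant in the cytosol of neutrophils and monocytes. S100a8 was 5.51, 5.04, 4.96, 4.88 and 5.55 in T cell mice on ICA and 4.59, 5.65, 6.56 and 6.50 in T cell mice on vehicle. It was 4.36, 5.27, 5.54, 4.87 and 5.19 in marrow-only mice on ICA and 4.83, 5.32, 4.57 and 5.11 in marrow-only mice on vehicle. Mice 3 and 4 of the T cell vehicle group were above all the other 16 mice, and mouse 1 of that group was near the bottom. The vehicle difference was 0.87 ± 0.33 (limma, adjusted p = 0.222).

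S100a9 was 5.76, 5.13, 5.16, 5.49 and 5.54 in T cell mice on ICA and 5.45, 5.60, 6.42 and 6.37 in T cell mice on vehicle. It was 5.53, 6.11, 6.09, 5.71 and 5.60 in marrow-only mice on ICA and 5.55, 5.73, 5.45 and 5.53 in marrow-only mice on vehicle. The same mice 3 and 4 were highest, and marrow-only mice 2 and 3 on ICA came next. The vehicle difference was 0.39 ± 0.20 (limma, adjusted p = 0.411).

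Of the primary granule enzymes, Mpo (Entrez 17523, chromosome 11), which makes hypochlorous acid, had a narrow range: 5.41 to 6.09 in T cell mice on ICA, 5.60 to 5.77 in T cell mice on vehicle, 5.38 to 5.68 in marrow-only mice on ICA and 5.43 to 5.74 in marrow-only mice on vehicle. Elane (Entrez 50701, chromosome 10), the neutrophil serine protease elastase, lay between 5.78 and 6.20 in T cell mice on ICA and between 5.91 and 6.14 in T cell mice on vehicle. It lay between 5.71 and 6.15 in marrow-only mice on ICA and between 5.78 and 6.02 in marrow-only mice on vehicle. The groups overlapped for both genes. Their means over the 18 mice, 5.63 for Mpo and 5.97 for Elane, lay below the median of every array. Whether either message was detected was not tested. Under vehicle, T cell mice differed from marrow-only mice by 0.12 ± 0.12 for Mpo and by 0.13 ± 0.12 for Elane (limma, adjusted p = 0.755 and 0.717).

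Csf3r (Entrez 12986, chromosome 4), the receptor for G-CSF, was 7.08, 7.33, 7.23, 7.18 and 7.29 in T cell mice on ICA and 6.69, 7.47, 7.51 and 7.54 in T cell mice on vehicle. It was 6.85, 8.04, 7.99, 7.26 and 7.35 in marrow-only mice on ICA and 7.16, 7.75, 7.09 and 7.34 in marrow-only mice on vehicle. The lowest of all 18 mice was T cell vehicle mouse 1, and the 2 highest were marrow-only mice on ICA. Under vehicle the difference of T cell from marrow-only mice was −0.03 ± 0.22, with a 95% interval of −0.49 to 0.43.

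Cxcr2 (Entrez 12765, chromosome 1), the chemokine receptor that draws neutrophils into tissue, was 6.35, 6.33, 5.48, 6.04 and 6.43 in T cell mice on ICA and 6.07, 6.10, 6.66 and 7.12 in T cell mice on vehicle. It was 5.58, 6.80, 7.26, 6.59 and 6.59 in marrow-only mice on ICA and 6.25, 6.90, 6.16 and 6.68 in marrow-only mice on vehicle. No group stood apart. The vehicle difference was −0.01 ± 0.29, with a 95% interval of −0.62 to 0.60.

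In T cell mice on vehicle against marrow-only mice on vehicle, 1 of the 10 genes was called at an adjusted p under 0.05, where 1.47% of all genes were called, 0.794% as higher and 0.681% as lower. For 2 of the 10, Retnlg and Camp, every T cell mouse was above every marrow-only mouse, which held for 6.33% of all genes. The median difference of the 10 was 0.24, against 0.01 over all genes tested. Leaving out T cell vehicle mouse 1 brought 3 of the 10 past the threshold. Ngp was then at 1.38 (limma, adjusted p = 0.007) and S100a8 at 1.28 (adjusted p = 0.0166), beside Retnlg. This mouse was the lowest of its group for Ngp and S100a8, so its removal enlarges both differences. Over the 8 runs that each left out 1 mouse, adjusted p reached 0.249 for Ngp and 0.518 for S100a8. These runs called 94 to 326 of all genes.

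**Figure D2:**
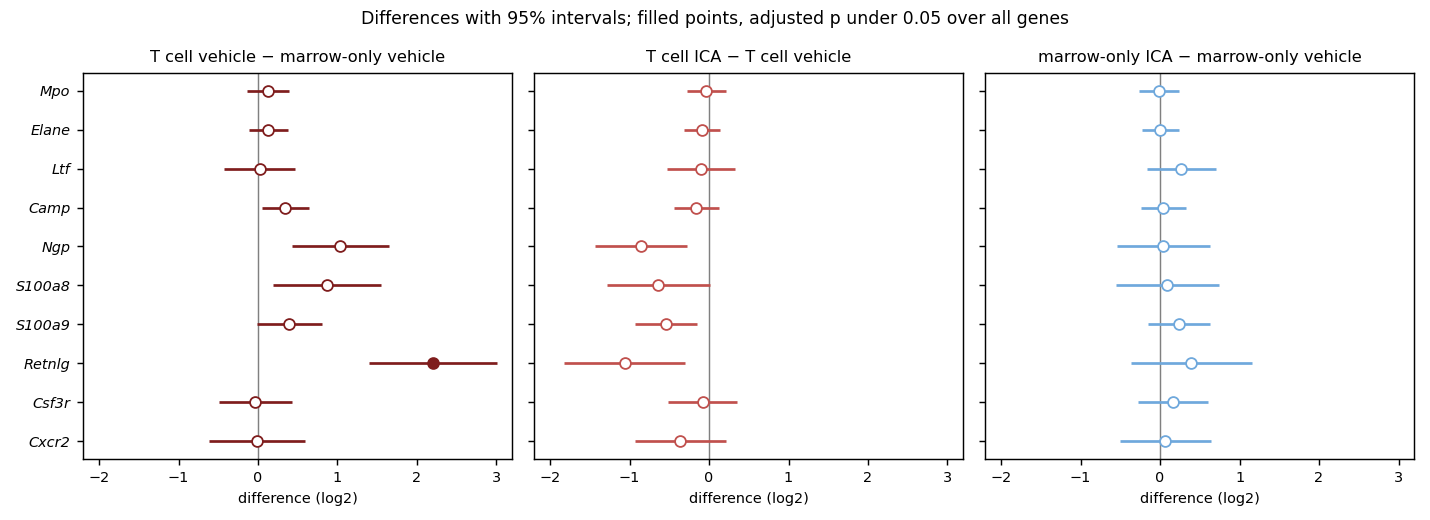
Difference between groups in log2 signal (horizontal axis) for each of the 10 genes (vertical axis), with bars for the 95% interval of the limma fit, in panels for T cell vehicle minus marrow-only vehicle, T cell ICA minus T cell vehicle and marrow-only ICA minus marrow-only vehicle; a filled point has an adjusted p under 0.05. Retnlg, at 2.20 under vehicle, is the gene whose interval lies farthest from 0.

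The next comparison asks whether ICA altered these genes in mice with donor T cells, and it uses the same 4 T cell mice on vehicle as the comparison above, so the 2 sets of differences are not independent. None of the 10 genes passed in T cell mice on ICA against T cell mice on vehicle, where 0.0135% of all genes passed (limma), and 3 of the 10 had an unadjusted p under 0.05, as did 6.89% of all genes. The ranges of the 2 groups overlapped for all 10 genes, whereas 1.11% of all genes lay wholly higher and 1.78% wholly lower on ICA. Retnlg differed by −1.06 ± 0.37 (adjusted p = 0.524), Ngp by −0.85 ± 0.28 (adjusted p = 0.514), S100a9 by −0.55 ± 0.19 (adjusted p = 0.524) and S100a8 by −0.64 ± 0.31 (adjusted p = 0.731). The other 6 differences lay between −0.36 for Cxcr2 and −0.04 for Mpo. All 10 differences were below 0, as were those of 53.4% of all genes, and the median was −0.26 against −0.01 over all genes.

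Set side by side, Retnlg was 2.20 higher in T cell mice than in marrow-only mice under vehicle and −1.06 with ICA against vehicle in T cell mice, and Ngp was at 1.03 and −0.85. S100a8 was at 0.87 and −0.64, and S100a9 at 0.39 and −0.55. The receptors were near 0 in the first comparison, with Csf3r at −0.03 and Cxcr2 at −0.01, and were at −0.08 and −0.36 in the second.

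Without donor T cells, marrow-only mice on ICA did not differ from marrow-only mice on vehicle in any of the 10 genes at an adjusted p under 0.05 (limma), where 0.00451% of all genes did, and 0 of the 10 reached an unadjusted p under 0.05, against 7.52% of all genes. Retnlg had the largest difference, 0.40 ± 0.37, followed by Ltf at 0.27 ± 0.21 and S100a9 at 0.24 ± 0.19. Of the 10 differences 9 lay above 0, as did those of 11865 of the 22180 genes. All 10 ranges overlapped, whereas 1.35% of all genes lay wholly higher and 0.825% wholly lower on ICA.

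Among mice on ICA, T cell mice against marrow-only mice gave 0 of the 10 past the threshold (limma), where 3.12% of all genes passed, and 2 of the 10 at an unadjusted p under 0.05, against 16.6% of all genes. These 2 were Retnlg at 0.74 ± 0.34 (adjusted p = 0.283) and S100a9 at −0.39 ± 0.18 (adjusted p = 0.266). Without marrow-only ICA mouse 1, Ltf was at −0.55 and passed (limma, adjusted p = 0.0432), in a run that called 1373 of all genes. That mouse had the lowest Ltf of all 18 mice, so its removal enlarges the difference. Over the 10 runs that each left out 1 mouse, Ltf was at −0.55 to −0.20, with adjusted p up to 0.708.

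The test of whether the ICA difference itself changed with donor T cells called 0 of the 10 genes and 0% of all genes (limma), with 3 of the 10 and 6.68% of all genes at an unadjusted p under 0.05. Those 3 were Retnlg at −1.46 ± 0.52, S100a9 at −0.79 ± 0.27 (both adjusted p = 0.71) and Ngp at −0.90 ± 0.39 (adjusted p = 0.724).

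The mice with the highest values were not the same for all 10 genes. T cell vehicle mouse 3 was among the 3 highest of 18 mice for 6 of the 10 genes and highest for 4 of them, Camp, Ngp, S100a8 and S100a9. T cell vehicle mouse 4 was among the 3 highest for 5 genes. T cell vehicle mouse 1 was the highest of all for Retnlg, yet the lowest for Csf3r and among the 3 lowest for 3 genes. Marrow-only ICA mouse 1 was lowest for 4 genes and among the 3 lowest for 7.

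Beside these values, other cell markers also differed between the mice of the T cell vehicle group. The mean log2 signal of the 5 Paneth cell markers was 12.2, 9.89, 10.82 and 10.94 in mice 1 to 4, against 11.98 to 12.21 in marrow-only mice on vehicle. The 6 T cell markers averaged 7.9, 8.54, 8.89 and 8.13 in these 4 mice, against 6.74 to 7.35 in the marrow-only mice on vehicle. T cell vehicle mouse 1 thus had Paneth cell markers in the marrow-only range, and T cell markers above it. B cell markers averaged 5.55, 5.52, 5.57 and 5.73 in mice 1 to 4, against 6.25 to 6.7 in marrow-only mice on vehicle. Mast cell markers averaged 5.72, 5.71, 6.41 and 5.8, against 6.93 to 7.16. Mouse 1 thus did not stand apart from its group in B cell or mast cell markers. These lists are examples, and the others are not set out here. The part of these differences in the neutrophil values was not tested.

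**Figure D3:**
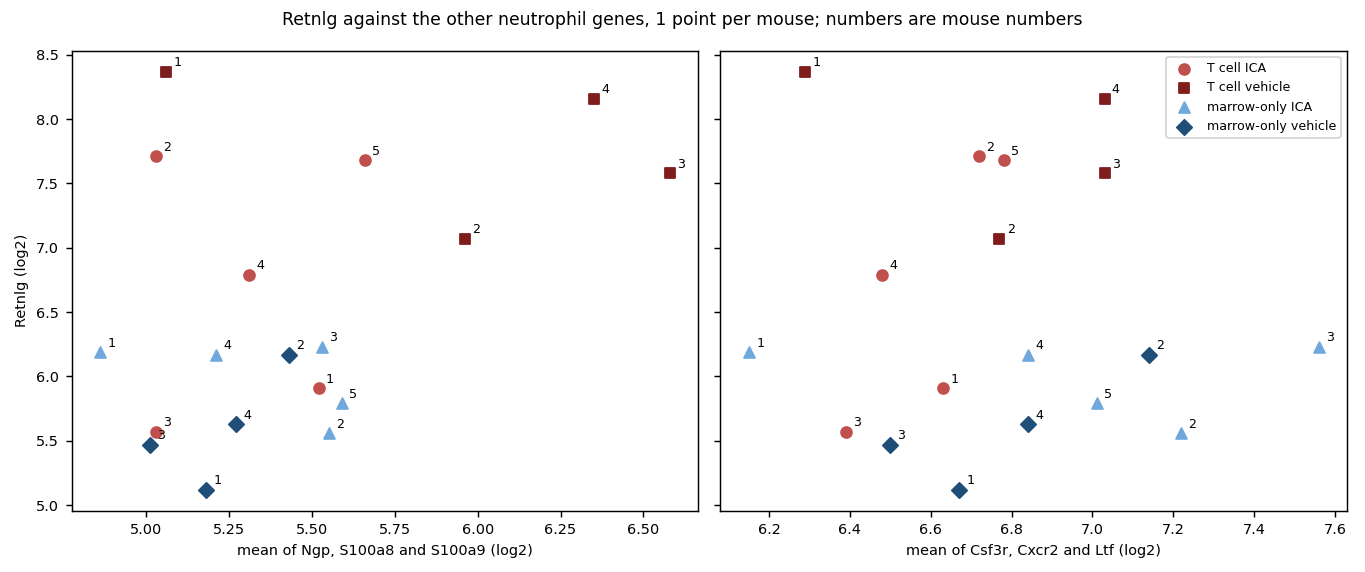
Log2 signal of Retnlg (vertical axes) against the mean log2 signal of Ngp, S100a8 and S100a9 (horizontal axis, left) and of Csf3r, Cxcr2 and Ltf (horizontal axis, right), with 1 point per mouse, labelled by mouse number and coloured by group. T cell vehicle mouse 1 has the highest Retnlg, 8.37, with a mean of 5.06 on the left, where the other T cell mice on vehicle have means of 5.96 to 6.58.

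As a description over the 18 mice, with Pearson's r across arrays that share groups, S100a8 followed the mean of the other 9 genes most closely (r = 0.90), then S100a9 (0.70), Ngp (0.69), Camp (0.59) and Cxcr2 (0.57). Mpo, Elane, Csf3r and Ltf had r of 0.50, 0.49, 0.44 and 0.43, and Retnlg had the lowest, 0.30. The 6 other genes most like the mean of the 10 were Clec4d (0.87), a C-type lectin of myeloid cells, Ccr1 (0.85), a chemokine receptor of neutrophils and monocytes, Gm5150 (0.85), Il1a (0.83), the cytokine interleukin 1 alpha, Cemip (0.83), which breaks down hyaluronan, and Tarm1 (0.83), an activating receptor of myeloid cells. Of these, Gm5150 rose in T cell mice on vehicle, by 0.56 ± 0.13 over marrow-only mice on vehicle (limma, adjusted p = 0.0364), and Clec4d was at 0.80 ± 0.23 (adjusted p = 0.0899). The mean of the 10 was itself 6.34 in T cell mice on vehicle and 5.84 in marrow-only mice on vehicle. Picking genes by likeness to it on the same arrays favours such rises, so they add no independent evidence.

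Other genes of neutrophils, of their recruitment and of other cell types were read from 17 lists, with 112 of 125 entries measured. In T cell mice on vehicle against marrow-only mice on vehicle, 0.794% of all genes rose and 0.681% fell. Of 17 other surface receptors measured, 2 rose and 0 fell in T cell mice on vehicle against marrow-only mice on vehicle, with a median of 0.34. The 2 were Fcgr4, an activating Fc receptor, at 1.25 ± 0.26 (limma, adjusted p = 0.0164), and Fcgr3, another Fc receptor, at 0.67 ± 0.14 (adjusted p = 0.0217), both also carried by monocytes and macrophages. Fcgr4 was 8.11, 8.55, 9.03 and 9.32 in T cell mice on vehicle, against 7.63, 7.57, 7.28 and 7.54 in marrow-only mice on vehicle. The groups did not overlap, as for 6.33% of all genes in that direction. Itgb2, the shared chain of leukocyte integrins, was at 0.83 ± 0.22 (adjusted p = 0.0566).

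Monocyte and macrophage markers moved in the same comparison: 4 of 11 rose and 0 fell, with Mrc1 at 0.95 ± 0.16, Csf1r at 0.92 ± 0.19 and C1qb at 0.74 ± 0.16 (limma, adjusted p = 0.00386, 0.0181 and 0.0205). Their mean log2 signal was 8.61 to 9.01 in T cell mice on vehicle, against 8.13 to 8.47 in marrow-only mice on vehicle, and their part in the Fc receptor and calprotectin values was not tested. With ICA in T cell mice their mean was 8.58 to 9.02, which overlapped with vehicle.

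Of 14 other granule proteins, 0 rose and 1 fell in T cell mice on vehicle. The one was Cd177, a neutrophil surface and granule glycoprotein, with 7.29, 7.36, 7.29 and 7.61 in T cell mice on vehicle against 8.25, 8.48, 7.98 and 8.54 in marrow-only mice on vehicle. It fell by 0.93 ± 0.22 (limma, adjusted p = 0.0366), the direction opposite to that of Retnlg, and its groups did not overlap, as for 4.21% of all genes in that direction. Among mice on ICA it differed by −1.11 ± 0.20 (adjusted p = 0.0028). Mmp8, neutrophil collagenase, at 0.76 ± 0.23 and Chil3, a chitinase-like protein, at 1.38 ± 0.44 did not pass under vehicle.

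The oxidase subunits, the granulocyte transcription factors, the CXCR2 ligands and the cytokines had 0 of 5, 0 of 6, 0 of 6 and 0 of 9 measured genes called in T cell mice on vehicle against marrow-only mice on vehicle. Their medians were 0.31, 0.09, 0.14 and 0.04, and at an unadjusted p under 0.05 they had 2, 1, 1 and 1 genes, against 13.0% of all genes. Cybb, the catalytic oxidase subunit, was at 0.81 ± 0.24 (limma, adjusted p = 0.094), and the CXCR2 ligand Cxcl2 at 0.70 ± 0.31 (adjusted p = 0.337). Of 6 endothelial adhesion genes Vcam1, which binds leukocytes to vessel walls, rose by 0.88 ± 0.18 (adjusted p = 0.0177).

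With ICA in T cell mice, 0 genes in any of these lists were called (limma). The 6 CXCR2 ligands had a median of −0.33, against −0.01 over all genes. At an unadjusted p under 0.05 they had 2 genes, against 6.89% of all genes. All 6 lay below 0, as did 53.4% of all genes. Their mean log2 signal was 5.39 to 5.7 in T cell mice on ICA and 5.57 to 6.48 in T cell mice on vehicle. Cxcl2 was 6.99, 6.19, 6.38, 6.53 and 6.63 in T cell mice on ICA and 6.54, 6.96, 7.37 and 8.50 in T cell mice on vehicle. The groups overlapped, and the difference was −0.80 ± 0.30 (adjusted p = 0.577). The 17 other surface receptors had a median of −0.20 and the 14 other granule proteins a median of −0.05.

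**Figure D4:**
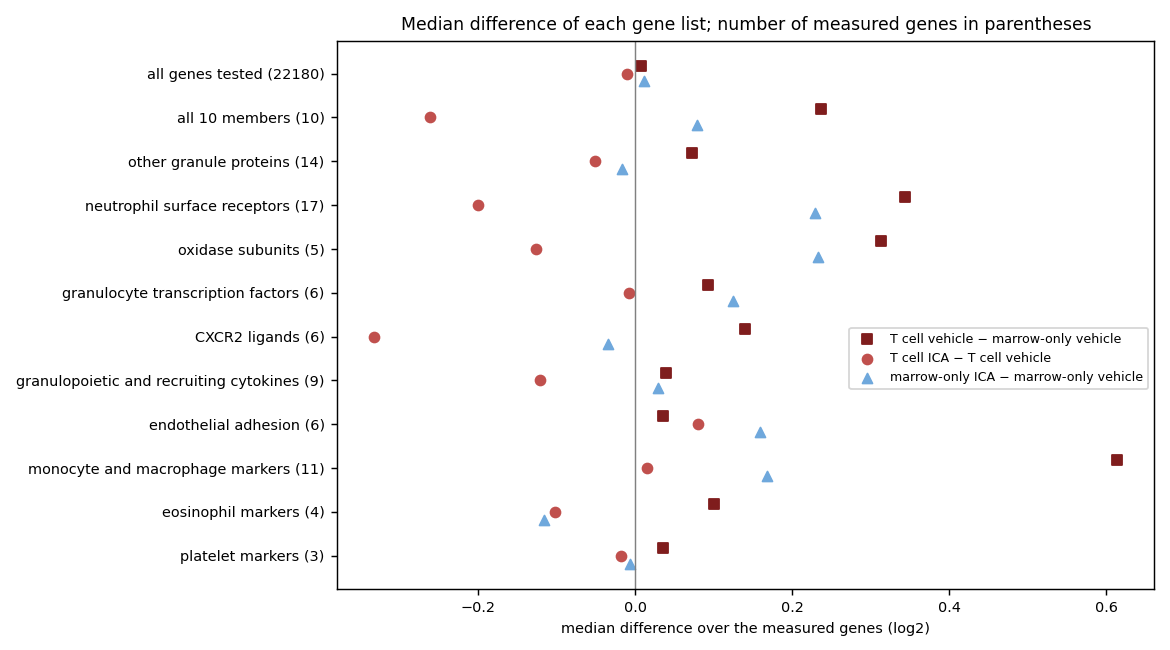
Median log2 difference (horizontal axis) over the measured genes of each list (vertical axis, with the number of genes), for T cell vehicle minus marrow-only vehicle, T cell ICA minus T cell vehicle and marrow-only ICA minus marrow-only vehicle. The 10 genes lie at 0.24 in the first comparison and −0.26 in the second, against 0.01 and −0.01 over all genes tested, and these 2 comparisons share the T cell mice on vehicle.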

How the data were processed

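Total RNA from the ileum was hybridised to Affymetrix whole-transcript arrays, per the labels' protocols. Partek, GenomeStudio and RMA are named, without versions, in the submitters' processing notes. Neither the filters nor the base of the logarithm is given in the sources used here. The authors' deposited values were read as log2, from their range and the nearly equal array medians. The table held 41345 probe sets, of which 23521 had 1 gene symbol, 1814 several and 16010 none. A gene was tested on its single-symbol probe set with the highest mean over 18 arrays, with no filter on low values. Array probes follow a reference strain, and donors and recipients differ in strain.

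A model with a mean for each of 4 groups was fitted to all 18 arrays with limma 3.58.1 in R 4.3.3, with a trended prior (14 residual degrees of freedom, 6.1 from the prior). Tests were two-sided, p-values were adjusted by Benjamini and Hochberg over 22180 genes, and errors of differences are SE. The procedure was tested on simulated data, with independent noise of the same spread on every array. The simulation thus lacked the unequal array quality of these data, where array weights ran from 0.366 to 1.433. The number of arrays limits the precision. The members and lists were chosen with earlier results of these data known. Named genes are all members, up to 3 of each other list with the smallest p in T cell vehicle against marrow-only vehicle, and the 6 most like the members' mean. Also named are Fabp6 and Slc10a2 as a check of the tissue, and Retnlb and Retn as relatives of Retnlg. Retnla and Hp were chosen after their values were seen. Same-numbered mice of different groups are not stated to be related, and 3 of 25 such pairs of arrays deviated together with r over 0.1. Alternatives were other sample sets, priors, filters, normalizations, array weights and mouse number as a block.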

Additional observations from a re-analysis of the deposited data

Results flagged for a closer look

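Csf3r in T cell vehicle mouse 1 was 6.69, far from the 7.47, 7.51 and 7.54 of the other 3 mice of its group, by Dixon's test of the gap over the range. It was the 1 flag among 40 groups of values tested over the 10 genes, and chance flags about 1 in 20 groups.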

How the results depend on the processing

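Retnlg in T cell vehicle against marrow-only vehicle mice passed in all 18 alternatives run, with differences of 2.01 to 2.44 and adjusted p of 0.00128 to 0.0292. These alternatives use the same mice, and 8 of them each left out 1 mouse. Averaging the probe sets of a gene, another of them, could not change the values of Retnlg, which has 1 probe set. The number of mice limits the precision, and 7 of the 10 genes had means below the median of every array. A pairing of mice by number is not given, so mouse number as a replicate block is an alternative only. With the block 2 of the 10 genes were called in T cell vehicle against marrow-only vehicle, Ngp being the other (adjusted p = 0.0341), and 0 of all genes in marrow-only ICA against marrow-only vehicle. Elane was then at −0.0475 and Ngp at −0.13 in that ICA comparison. Array weights also called 2 of the 10 in T cell vehicle against marrow-only vehicle, with Ngp at an adjusted p of 0.0351 (limma). They called 1074 of all genes there, against 327 in the main fit.

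The counts of all genes called were 327 in T cell vehicle against marrow-only vehicle, 3 in T cell ICA against T cell vehicle, 1 in marrow-only ICA against marrow-only vehicle and 693 in T cell ICA against marrow-only ICA. With only the groups compared they were 824, 49, 0 and 321 in the same order. Array weights gave 1074 in the first, 13 in the second and 1049 in the last, and a robust prior variance gave 0 in marrow-only ICA against marrow-only vehicle. Leaving out the 3 arrays of largest deviation, chosen after seeing the data, gave 940, 6, 83 and 1451. Leaving out 1 mouse at a time gave 94 to 326, 1 to 9, 0 to 119 and 378 to 1373, and 0 to 2 for the interaction. Of the 10 genes, 1 to 3 were called in T cell vehicle against marrow-only vehicle, 0 to 1 in T cell ICA against marrow-only ICA and 0 in the other 3 comparisons.

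Small differences changed sign, and the cause was not tested. Ltf in T cell vehicle against marrow-only vehicle was at −0.0161 with further quantile normalization and at −0.0155 with centring on array medians, and the centring put Elane at −0.0143 in marrow-only ICA against marrow-only vehicle and Mpo at 0.0004 in the interaction. Mpo in marrow-only ICA against marrow-only vehicle was at 0.0052 with array weights and at 0.0276 without the 3 arrays. Without those arrays, T cell ICA against marrow-only ICA gave Mpo −0.0424, Elane −0.0081, Ngp −0.0021 and S100a8 −0.0926.

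With 1 mouse left out at a time, T cell vehicle against marrow-only vehicle gave Csf3r −0.12 to 0.17, Cxcr2 −0.22 to 0.13 and Ltf −0.10 to 0.17. T cell ICA against T cell vehicle gave Ltf −0.26 to 0.0172 and Mpo −0.14 to 0.0287. Marrow-only ICA against marrow-only vehicle gave Camp −0.0446 to 0.0902, Cxcr2 −0.11 to 0.31, Elane −0.0495 to 0.0608, Mpo −0.067 to 0.039, Ngp −0.16 to 0.17 and S100a8 −0.0387 to 0.26. T cell ICA against marrow-only ICA gave Elane −0.0181 to 0.0929, Mpo −0.0002 to 0.17, Ngp −0.0026 to 0.34 and S100a8 −0.0309 to 0.26. The interaction gave Mpo −0.13 to 0.0432.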

Other observations

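Haptoglobin (Hp), a hemoglobin-binding protein stored in neutrophil granules and also made by liver, was chosen after its values were seen. It rose by 1.91 ± 0.38 in log2 in T cell mice over marrow-only mice on ICA (limma, adjusted p = 0.00685), and was at 1.18 ± 0.43 under vehicle (adjusted p = 0.196). Ccr3, the eotaxin receptor of eosinophils, rose by 0.83 ± 0.16 in T cell mice on vehicle over marrow-only mice on vehicle (limma, adjusted p = 0.0123), the 1 of 4 eosinophil markers that was called. In the same comparison 2 of 5 mast cell markers fell, Mcpt1 and Mcpt2, mast cell proteases of the mucosa, with differences of −2.44 ± 0.47 and −2.41 ± 0.53 (limma, adjusted p = 0.0127 and 0.0244). With ICA in T cell mice these 2 were at 2.06 ± 0.45 and 1.89 ± 0.50 without passing (adjusted p = 0.204 and 0.339). Under vehicle, 0.794% of all genes were called as higher in T cell mice than in marrow-only mice and 0.681% as lower.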
